A study of Mus musculus with 14 samples.

Results

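The mitochondrial ribosome genes were taken as the probe sets of the array that name 1 gene whose symbol starts with Mrpl (large subunit) or Mrps (small subunit) followed by a digit. There were 127 such probe sets of 22690 on the array, for 74 genes of 12393 named: 88 for 47 large subunit genes and 39 for 27 small subunit genes. Whole number 4 inguinal mammary glands of untreated female CD1 mice, an outbred stock, had been profiled through puberty, on 14 arrays. There were 2 arrays for the age of 5wk (5 weeks) and 3 for each of the ages 3wk, 4wk, 6wk and 7wk, named A to C within an age. Lymph nodes had been removed. The RNA of 3 or more mice was pooled for an array, so the spread between arrays is that between pools. By the labels the groups differ only in age, and 3wk, the youngest, is what the later ages are set against.

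The mitochondrial ribosome makes the few proteins that mitochondrial DNA encodes, which are core subunits of the respiratory chain and ATP synthase. Its ribosomal RNAs come from mitochondrial DNA, whereas every one of its proteins is encoded in the nucleus, made on cytosolic ribosomes and imported. Part of these proteins have relatives in bacterial ribosomes and the others are found only in mitochondria. In the mammary gland, the fat pad into which the ducts grow supplies most of the tissue at the youngest ages, and brown-like adipocytes, which are rich in mitochondria, are known from it. In such whole glands, fewer cells of a type and less RNA per cell cannot be told apart.

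The values are linear ratios: each probe set had been divided by its own median over the 14 arrays, so 1 is the middle level of that probe set and says nothing of how one gene's level compares with another's. Of the 127 members, 116 (78 large and 38 small) were tested, and all 74 genes kept at least 1 probe set. The other 11 had recovered levels, in units of the smallest signal step of an array, with medians from 22 to 101, below the limit of 200. They belong to Mrpl1, Mrpl3, Mrpl11, Mrpl15 (with 2), Mrpl19, Mrpl41, Mrpl42, Mrpl51, Mrpl52 and Mrps11, and their ratios ran from 0.156 to 3.44 over the arrays. Another 3 probe sets name a mitochondrial ribosome gene together with a different gene and were left out. A change below is a log2 difference between ages from 1 limma model of all 14 arrays, with its standard error (SE), and a probe set was called where its Benjamini-Hochberg adjusted p over all 18479 tested probe sets was below 0.05.

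Mitochondrial ribosome genes were called lower in older glands and none was called higher. At 7wk, 14 of the 116 tested members were called lower than at 3wk (12.1%) and 0 higher, against 2.6% lower and 5.95% higher among all probe sets tested. At unadjusted p below 0.05, limma put 38 members lower and 1 higher, that one being the Mrpl33 probe set 1425843_at. Among all 18479 probe sets, 1425 were lower and 2769 higher at that threshold. The median change of the members was -0.27 (-0.25 for the large and -0.33 for the small subunit), against 0.08 for all probe sets. Of the 116 members, 92 (79.3%) lay below 0, against 41.4% of all probe sets. The arrays of the ages did not overlap for 39 members lower and 3 higher at 7wk, against 9.84% and 18.5% of all probe sets. The count of 14 was 6 without the 7wk B array, 8 without 7wk A, 8 without 7wk C, and 9 without 3wk B.

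At 6wk, 12 members were called lower than at 3wk (7 large and 5 small) and 0 higher, against 4.58% lower and 9.15% higher among all probe sets. At unadjusted p below 0.05, limma put 34 lower and 0 higher, against 1956 lower and 3373 higher among all 18479 probe sets. The median change of the members was -0.27, against 0.07 for all probe sets. Below 0 lay 94 of 116 members (81%), against 43.9% of all probe sets. For 34 members the 6wk arrays lay wholly below the 3wk arrays and for 0 wholly above, against 12% and 20.6% of all probe sets. The count was 7 without 6wk B, 7 without 6wk C, and 1, Mrpl47, without 6wk A and 6wk B together. The 7wk and 6wk comparisons share their 3wk arrays, so their values are given side by side and are not independent of each other.

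At 5wk, 1 member was called lower than at 3wk (Mrps2) and 0 higher, against 1.24% and 2.39% of all probe sets. At unadjusted p below 0.05, 26 members were lower and 0 higher, against 1398 and 1868 of all 18479 probe sets. The median change of the members at 5wk was -0.26, close to those at 6wk and 7wk. At 4wk against 3wk, limma called 0 members, against 0.152% of all probe sets, and the members' median was -0.09. At unadjusted p below 0.05, 3 members were lower and 1 higher, against 529 and 1369 of all 18479 probe sets. Between neighbouring ages limma called 0 members as well. The backgrounds were 0.752% for 5wk against 4wk, 0.281% for 6wk against 5wk and 0.958% for 7wk against 6wk. At unadjusted p below 0.05 there were 17 lower and 0 higher at 5wk against 4wk, 2 lower and 1 higher at 6wk against 5wk, and 7 lower and 4 higher at 7wk against 6wk. Over all 18479 probe sets these numbers were 1550 and 1210, then 828 and 1114, then 1172 and 1415. The lower counts at 4wk against 3wk and at 7wk against 6wk are shares close to the background. The median change of the members was -0.14 at 5wk against 4wk and -0.01 at 6wk against 5wk.

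The F test over the 5 ages called 13 of 116 members (11.2%; 7 large and 6 small), against 10.3% of all probe sets, a share close to the background. The count of 13 was 5 without 7wk B or 7wk C, 6 without 4wk A, 7 without 3wk B, 3wk C or 5wk B, and 8 without 4wk B or 4wk C. The mean over arrays was highest at 3wk for 63 of the 116 members (54.3%), against 17.4% of all probe sets, and highest at 7wk for 9. It was lowest at 7wk for 39, at 6wk for 28, at 5wk for 28 and at 3wk for 10. Over all probe sets, 28.2% were lowest at 3wk.

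**Figure D1:**
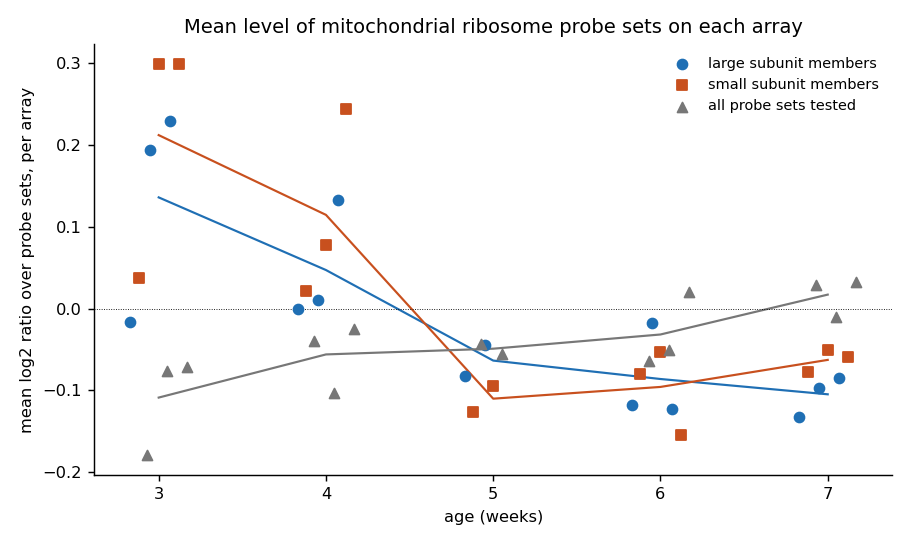
Mean log2 ratio over the 78 large subunit, the 38 small subunit and all 18479 tested probe sets on each array (points), by age in weeks, with lines through the means of each age. Both subunits lie above all probe sets on every 3wk and 4wk array and below them on every 7wk array, and 3wk A lies below the other 3wk arrays.

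The mean log2 ratio of the 116 members was 0.161 ± 0.138 in 3wk glands and 0.069 ± 0.087 in 4wk glands. It was -0.079 ± 0.025 in 5wk glands, -0.089 ± 0.054 in 6wk glands and -0.091 ± 0.021 in 7wk glands (SD; n = 2 arrays for 5wk and 3 for each other age). The 3wk arrays did not lie together: A had a mean of 0.001, whereas B had 0.228 and C 0.252. The 4wk arrays A, B and C had 0.006, 0.033 and 0.168. Each of the 8 arrays from 5wk on lay below 0 and below each 3wk and 4wk array. The mean of all probe sets was also lowest on 3wk A, at -0.179. Without 3wk A, 13 members were called lower at 7wk and 13 at 6wk.

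Both subunits had their highest mean at 3wk, and they differed in the age of the lowest. The mean over large subunit members was 0.136 ± 0.133 for 3wk, 0.047 ± 0.074 for 4wk, -0.063 ± 0.026 for 5wk, -0.086 ± 0.059 for 6wk and -0.105 ± 0.025 for 7wk (SD over arrays). The mean over small subunit members was 0.212 ± 0.151 for 3wk, 0.114 ± 0.116 for 4wk, -0.110 ± 0.023 for 5wk, -0.096 ± 0.053 for 6wk and -0.063 ± 0.014 for 7wk. The lowest mean was thus that of 7wk for the large and that of 5wk for the small subunit. Each of these lay within the range of the same subunit's 6wk arrays. The large minus small difference was taken on each array, so that array-wide shifts drop out of it. It averaged -0.076 over the 3wk arrays and -0.067 over those of 4wk, then 0.047 for 5wk, 0.010 for 6wk and -0.042 for 7wk. It was -0.105 to -0.053 on the 3wk arrays, -0.112 to -0.022 at 4wk, 0.045 to 0.049 at 5wk, -0.038 to 0.034 at 6wk and -0.055 to -0.026 at 7wk. The ranges of 7wk and 3wk overlap, whereas both 5wk arrays lie above every other array. These are descriptions with no test, the subunits are taken by symbol, and they differ in which probe sets stand for them.

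Symbols do not follow the structures in every case. Mrps18a and Mrps30 encode proteins that structures of the mammalian mitochondrial ribosome place in the large subunit, and the Mrps36 protein is now assigned to the 2-oxoglutarate dehydrogenase complex of the citric acid cycle. With the first pair counted as large and Mrps36 left out, a choice made after the data were seen, the medians at 7wk against 3wk were -0.26 over 80 large and -0.27 over 35 small subunit probe sets. By symbol they were -0.25 and -0.33, so the subunit medians differ less with these 3 genes reassigned. The called count at 7wk was then 13. Genes with bacterial relatives had 9 of 72 probe sets called lower at 7wk and a median of -0.29. Genes found only in mitochondria had 4 of 43 called lower and a median of -0.22. Over all probe sets tested, 2.6% were called lower and the median was 0.08. Both kinds of protein are among the called members, and this grouping was also made after the values were seen.

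**Figure D2:**
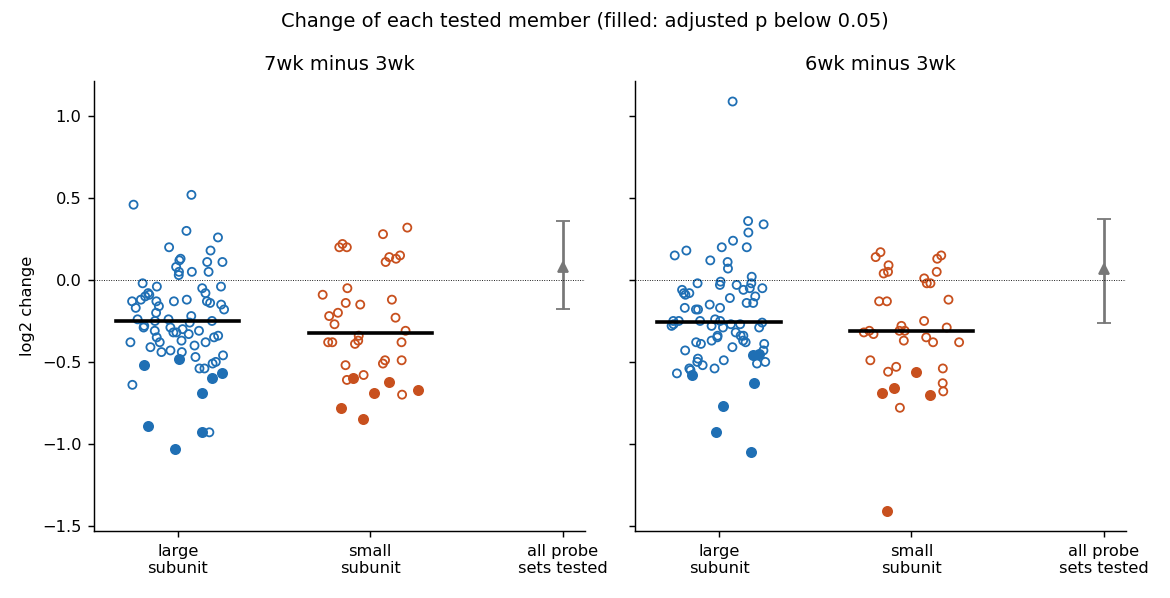
Log2 change of each tested member at 7wk (left) and 6wk (right) against 3wk, by subunit, with called probe sets filled, the median of each subunit as a bar and, for all 18479 probe sets, the median and quartiles. The medians of both subunits, -0.25 and -0.33 at 7wk, lie below that of all probe sets, 0.08, and all filled points lie below 0.

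Promoter sequences of RefSeq (GRCm38.p6) were matched for 65 of the 74 genes, in windows from 250 bases before to 50 after the start. Letters of 5 motifs were searched on both strands, and the motifs may overlap each other. CCGGAAG, a core of sites for GABPA, an ETS factor known for mitochondrial genes, stood in the windows of 24 of the 65 genes (36.9%), against 12.9% of all 17492 protein-coding genes. GCGCATGC, of NRF1, stood in 8 (12.3%, against 3.94%), and AAGATGGCG, of YY1, in 7 (10.8%, against 2.14%). CACGTG, bound by MYC, stood in 5 (7.69%, against 8.91%), and TCAAGGTCA, of ESRRA, in 0 (against 0.377%). The median content of G and C was 58.7% in the members' windows and 56.3% in all. Among the 13 matched genes called at 7wk or 6wk, 2 had the GABPA letters, 2 those of NRF1, 3 those of YY1 and 0 those of MYC or ESRRA. Among the 52 others these numbers were 22 for GABPA, 6 for NRF1, 4 for YY1, 5 for MYC and 0 for ESRRA. The GABPA and MYC letters were thus scarcer among the called genes and the YY1 letters more frequent, a description of few genes with no test. A match is a stretch of letters and no evidence of binding.

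The 120 bases before the start are shown for 3 members called lower, on the gene's strand, with the motif letters found there in capitals: Mrpl51 (chr6:125192080-125192199, plus strand) with GABPA, Mrpl9 (chr3:94443216-94443335, plus strand) with the NRF1 letters on both strands in overlap, and Mrpl47 (chr3:32736756-32736875, minus strand), the member with the largest change at 7wk, with none of the 5.
Mrpl51: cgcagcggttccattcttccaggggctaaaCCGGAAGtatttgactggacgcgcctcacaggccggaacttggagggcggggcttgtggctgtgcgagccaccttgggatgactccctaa
Mrpl9: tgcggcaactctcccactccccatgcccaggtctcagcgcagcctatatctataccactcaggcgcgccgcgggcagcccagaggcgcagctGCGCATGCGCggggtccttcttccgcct
Mrpl47: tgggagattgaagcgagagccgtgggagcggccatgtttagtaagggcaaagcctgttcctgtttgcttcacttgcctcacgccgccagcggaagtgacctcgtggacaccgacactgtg

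Mrpl47, a large subunit protein with a bacterial relative, had the largest change at 7wk. Its ratios were 1.45, 1.93 and 1.49 at 3wk, 1.18, 1.45 and 1.21 at 4wk, 0.914 and 1.06 at 5wk, 0.869, 0.943 and 0.731 at 6wk, and 0.849, 0.819 and 0.695 at 7wk. The 3 arrays of 7wk and the 3 of 6wk all lay below every 3wk array. The change was -1.03 (SE 0.16, limma adjusted p = 0.00299) at 7wk and -0.93 (SE 0.16, limma adjusted p = 0.00402) at 6wk, so the 7wk level was 0.488 times that at 3wk. Both calls held when any single array was left out. At 5wk the adjusted p was 0.0553 for the same probe set.

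Mrpl19, also with a bacterial relative, fell at 7wk but was not called at 6wk. Probe set 1421914_s_at had 0.56, 0.622 and 0.713 at 7wk, against 1, 1.35 and 1.26 at 3wk, with no overlap (-0.93, SE 0.16, limma adjusted p = 0.00501). Its ending marks probes that can match more than 1 transcript family. The other tested probe set, 1450405_at, had -0.35 (SE 0.18, adjusted p = 0.283), with the 7wk arrays again all below the 3wk arrays.

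Mrpl42 and Mrpl39 encode large subunit proteins found only in mitochondria, and the Mrpl39 protein resembles part of a threonyl-tRNA synthetase. Mrpl42 had 0.679, 0.794 and 0.662 at 7wk, against 1.6, 1.43 and 0.998 at 3wk (-0.89, SE 0.20, limma adjusted p = 0.0214). The 3wk arrays were widely spread, with C near the overall median, but none overlapped the 7wk arrays, and the call ended without 3wk A, 3wk B, 7wk A or 7wk C, with an adjusted p of up to 0.0726. Mrpl39 was called with both of its probe sets. The first, 1448909_a_at, had 0.707, 0.694 and 0.698 at 7wk, against 1.12, 1.16 and 1.1 at 3wk (-0.69, SE 0.13, limma adjusted p = 0.0101). The ages did not overlap, and 6wk had 0.954, 1.01 and 0.724. The second, 1417966_at, had -0.48 (adjusted p = 0.0418) and was called in 3 of 14 fits that left out an array, those without 3wk C, 6wk B or 6wk C, with an adjusted p of up to 0.14 without 7wk B.

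Mrpl21, Mrpl4 and Mrpl35, all with bacterial relatives, had smaller changes at 7wk. Mrpl21 (1452580_a_at) had 0.91, 0.953 and 0.805 at 7wk, against 1.26, 1.37 and 1.33 at 3wk (-0.57, SE 0.15, limma adjusted p = 0.0396). Mrpl4 had 0.949, 0.901 and 0.933 at 7wk, against 1.21, 1.21 and 1.62 at 3wk (-0.52, SE 0.14, limma adjusted p = 0.0388). Neither gene's arrays overlapped between the ages, but the calls rest on many arrays. That of Mrpl21 ended without any 1 of the 3wk, 6wk or 7wk arrays, with an adjusted p of up to 0.132 without 7wk C. That of Mrpl4 held only without 3wk A, 4wk A or 4wk C, with up to 0.114 without 3wk C. Mrpl35 (1419363_a_at) had 0.925, 0.727 and 0.781 at 7wk, against 1.26, 1.27 and 1.14 at 3wk (-0.60, SE 0.14, limma adjusted p = 0.022). Its call ended without 3wk A, 3wk B, 7wk B or 7wk C, with an adjusted p of up to 0.0834.

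**Figure D3:**
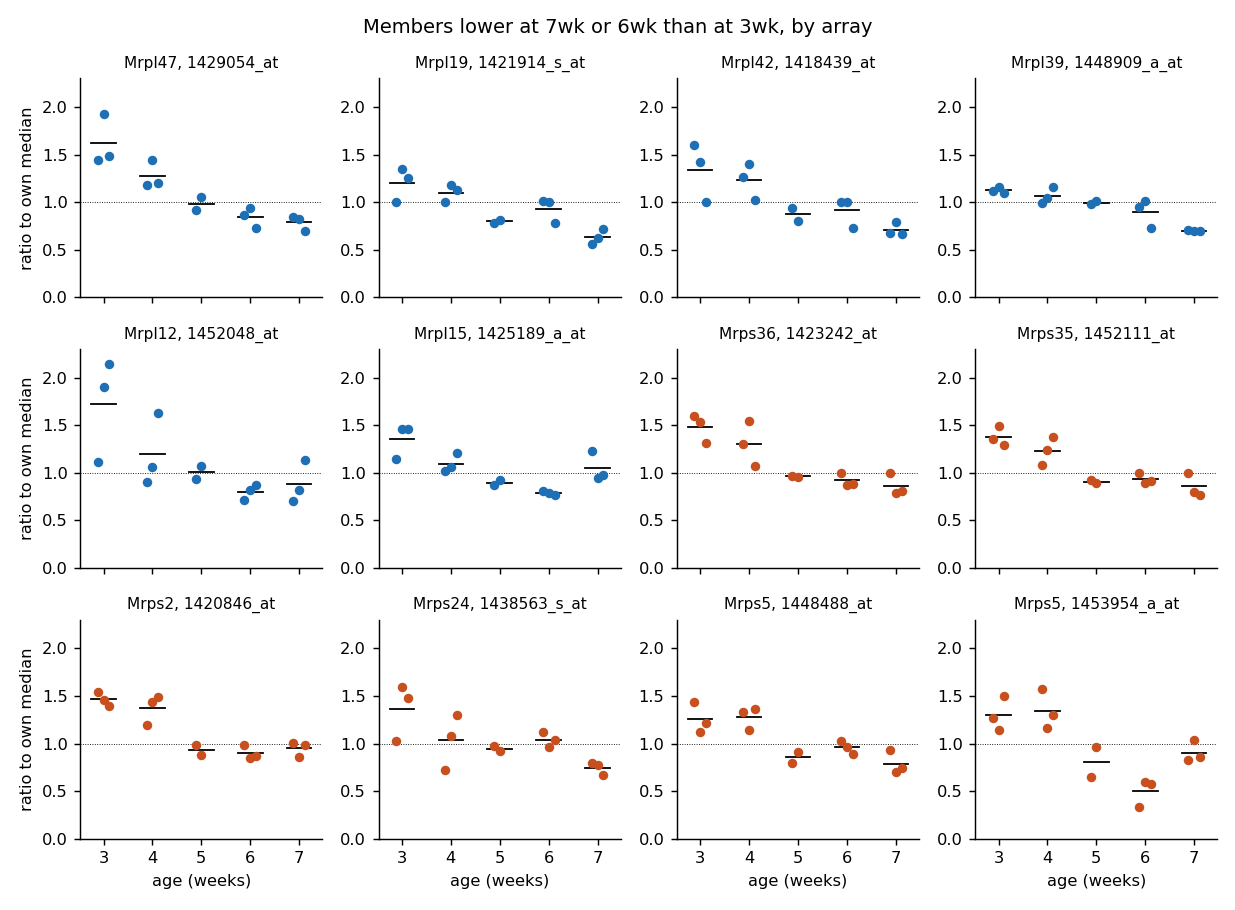
Ratio of 12 member probe sets to their own median on each array (points) by age in weeks, with the mean of each age as a bar and large subunit members in blue, small in orange. The 7wk points lie below all 3wk points for Mrpl47, Mrpl19, Mrpl42, Mrpl39, Mrps36, Mrps35, Mrps2, Mrps24 and both Mrps5 probe sets, and overlap them for Mrpl12 and Mrpl15.

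Among the small subunit symbols, Mrps36 had 0.996, 0.789 and 0.807 at 7wk, against 1.6, 1.54 and 1.31 at 3wk (-0.78, SE 0.16, limma adjusted p = 0.0114). At 6wk it had 1, 0.871 and 0.886 (-0.69, SE 0.16, limma adjusted p = 0.016). Both ages lay wholly below 3wk. The 6wk call ended without 3wk A or 6wk B, with an adjusted p of up to 0.0514.

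Mrps35, a small subunit protein found only in mitochondria, had 1, 0.802 and 0.768 at 7wk, against 1.35, 1.49 and 1.29 at 3wk (-0.69, SE 0.14, limma adjusted p = 0.0108). The 7wk arrays all lay below the 3wk arrays, and the call held without any single array. At 6wk the change was -0.56 (limma adjusted p = 0.0221), a call that ended without 3wk B, 6wk B or 6wk C, with an adjusted p of up to 0.0689.

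Mrps2, related to a bacterial protein that joins the small subunit late in assembly, was the only member called at 5wk, 6wk and 7wk. Probe set 1420846_at had 1.55, 1.45 and 1.4 at 3wk, 1.2, 1.44 and 1.49 at 4wk, 0.987 and 0.878 at 5wk, 0.989, 0.852 and 0.868 at 6wk, and 1.01, 0.862 and 0.984 at 7wk. All 8 arrays from 5wk on lay below all 6 arrays of 3wk and 4wk. The changes against 3wk were -0.65 at 5wk (limma adjusted p = 0.0319), -0.70 at 6wk (limma adjusted p = 0.0057) and -0.62 at 7wk (limma adjusted p = 0.013). The call at 5wk ended without any 1 of the 3wk or 5wk arrays, with an adjusted p of up to 0.211, and that at 7wk without 7wk B, at 0.0549. The second probe set, 1420845_at, had -0.66 at 6wk (limma adjusted p = 0.0158) and -0.60 at 7wk (limma adjusted p = 0.0329). Its 7wk call ended without 3wk A, 3wk C, 7wk A or 7wk B, with an adjusted p of up to 0.116, and its 6wk call without 3wk C or 6wk A, with up to 0.0568.

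Mrps24 and Mrps5, both with bacterial relatives, were called through 1 probe set each at 7wk. Mrps24 (1438563_s_at) had 0.797, 0.78 and 0.666 at 7wk, against 1.03, 1.6 and 1.48 at 3wk (-0.85, SE 0.22, limma adjusted p = 0.035). The 3wk A array lay much nearer the 7wk arrays than the other 3wk arrays did, and the call ended without 3wk B, 3wk C or any 1 of the 5wk and 7wk arrays, with an adjusted p of up to 0.115. The other probe set of Mrps24, 1450865_s_at, had -0.38 and was not called. Both have the ending described for Mrpl19. Mrps5 (1448488_at) had 0.929, 0.698 and 0.739 at 7wk, against 1.44, 1.12 and 1.21 at 3wk (-0.67, SE 0.15, limma adjusted p = 0.0189). That call ended without 3wk A, 7wk B or 7wk C, with an adjusted p of up to 0.0735.

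Further probe sets were called at 6wk. The other Mrps5 probe set, 1453954_a_at, had 0.333, 0.596 and 0.578 at 6wk, against 1.27, 1.15 and 1.5 at 3wk (-1.41, SE 0.24, limma adjusted p = 0.00375). That is the largest change among the called members of any comparison here. At 7wk it had 0.824, 1.04 and 0.857, higher than on each 6wk array, and the difference of 0.89 between 7wk and 6wk was not called (adjusted p = 0.129).

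Mrpl12, the large subunit stalk protein that helps recruit translation factors, had 0.711, 0.82 and 0.874 at 6wk, against 1.11, 1.9 and 2.15 at 3wk (-1.05, SE 0.28, limma adjusted p = 0.0318). The call ended without 3wk B, 3wk C or any 1 of the 6wk arrays, with an adjusted p of up to 0.103. At 7wk its ratios of 0.703, 0.824 and 1.14 overlapped those of 3wk (-0.93, SE 0.28, adjusted p = 0.0681). Mrpl10, the protein that ties this stalk to the ribosome, had its highest mean at 4wk, with 1.24, 1.4 and 1.24 against 1.09, 1.09 and 0.998 at 3wk, and passed the F test (limma adjusted p = 0.0409); it was named after its values were seen.

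Mrpl15 (1425189_a_at) had 0.814, 0.793 and 0.77 at 6wk, against 1.15, 1.46 and 1.46 at 3wk (-0.77, SE 0.14, limma adjusted p = 0.00602). The call held without any single array but ended without 6wk A and 6wk B together (adjusted p = 0.0796) and with the actin control as a covariate (adjusted p = 0.0616). The other 4 tested probe sets of Mrpl15 had -0.54, -0.52, -0.25 and 0.20 at 6wk and none was called. Its 7wk arrays, at 1.24, 0.948 and 0.977, overlapped 3wk. Mrpl45, found only in mitochondria, helps hold the ribosome at the inner membrane and had 0.91, 0.746 and 0.714 at 6wk, against 1.43, 1.07 and 1.17 at 3wk (-0.63, SE 0.15, limma adjusted p = 0.0178). At 7wk Mrpl45 had -0.51 (adjusted p = 0.0573), and its 6wk call ended without 3wk A, 6wk B or 6wk C, with an adjusted p of up to 0.0607. The remaining calls at 6wk were Mrpl51 (-0.58, limma adjusted p = 0.019), Mrpl9 (1430976_a_at, -0.45, limma adjusted p = 0.0292) and Mrpl35 (1419363_a_at, -0.46, limma adjusted p = 0.0478). The call of Mrpl51 ended without 3wk B, 3wk C, 6wk B or 6wk C, with an adjusted p of up to 0.0663. That of Mrpl9 ended without any 1 of the 3wk arrays, 6wk A or 6wk B, with up to 0.0923, and that of Mrpl35 held only without 6wk B or 7wk A, with up to 0.145.

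Members with the smallest range of age means over the 5 ages were Mrpl23 (0.14), Mrpl16 (0.18), Mrpl44 (1426651_at, 0.19) and Mrpl1 (1450948_a_at, 0.21) in the large subunit. In the small subunit they were Mrps14 (1420489_at, 0.14), Mrps23 (1421875_a_at, 0.17), Mrps6 (0.20) and Mrps15 (1456109_a_at, 0.23). The protein of Mrpl23 lies beside the tunnel through which new chains leave. These ranges are log2 differences between the highest and the lowest age mean. The paralogs Mrps18a, Mrps18b and Mrps18c descend from 1 bacterial protein and had changes of -0.38, -0.20 and -0.37 at 7wk, none of them called (adjusted p = 0.435, 0.577 and 0.218).

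No member was called higher. Mrpl33 (1425843_at) had 1.11, 1.29 and 1.08 at 7wk, against 0.806, 0.864 and 0.846 at 3wk, with no overlap (0.46, SE 0.19, adjusted p = 0.171). Mrps12, which encodes a protein at the decoding site, had 1.24, 1.05 and 1.4 at 7wk, against 0.718, 1.17 and 1.12 at 3wk (0.32, SE 0.23, adjusted p = 0.462), and the ages overlapped. The other members whose 7wk arrays lay wholly above 3wk were Mrpl57 (1460225_at, 0.30, adjusted p = 0.281) and Mrps25 (1418716_at, 0.28, adjusted p = 0.342).

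Probe sets of 1 gene could differ. Of 31 genes with more than 1 tested probe set, 10 had changes of both signs at 7wk against 3wk: Mrpl1, Mrpl13, Mrpl28, Mrpl35, Mrpl49, Mrpl52, Mrpl57, Mrps9, Mrps14 and Mrps25. Only Mrpl35 among these had a called probe set. Its second probe set, 1419362_at, had 1.17, 0.428 and 0.784 at 7wk, against 0.185, 0.791 and 0.921 at 3wk (0.52, SE 0.61, adjusted p = 0.679), and the ages overlapped. Mrpl13 ranged from -0.64 to 0.20 over 3 probe sets and Mrps9 from -0.61 to 0.14 over 4. With 1 mean value per gene, 11 of 74 genes were called lower at 7wk, against 2.99% of all 10670 genes tested, 8 at 6wk, against 4.29%, and 3 at 5wk (Mrps2, Mrpl47 and Mrps35), against 1.64%. Mrpl27 and Mrpl45 came in at 7wk (limma adjusted p = 0.0434 and 0.0472), and Mrpl21, Mrpl35 and Mrps24 dropped out (adjusted p = 0.249, 0.961 and 0.069). At 6wk Mrpl15, Mrpl35 and Mrpl51 dropped out (adjusted p = 0.21, 0.571 and 0.0839).

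**Figure D4:**
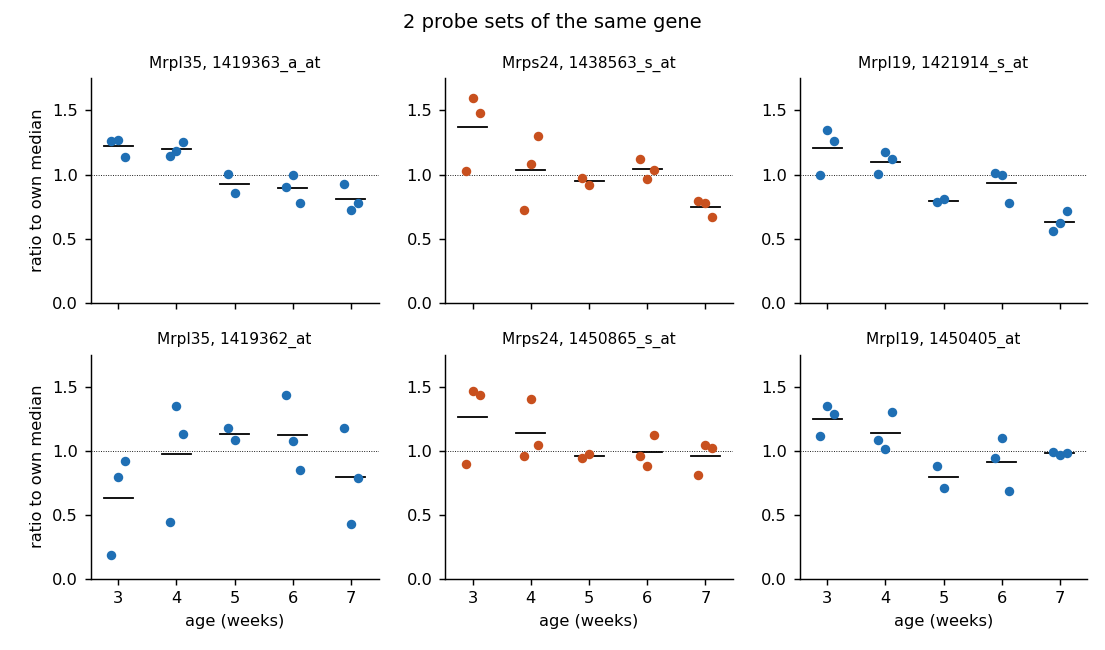
Ratio to the own median on each array (points), by age in weeks, for 2 probe sets each of Mrpl35, Mrps24 and Mrpl19, with the mean of each age as a bar. The upper probe set of each gene was called lower at 7wk against 3wk and the lower one was not, and for Mrpl35 the lower probe set has its lowest point, 0.185, on a 3wk array.

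Other genes of the pathway were read from lists by name. Over all probe sets tested, 2.6% were called lower and 5.95% higher at 7wk against 3wk. At unadjusted p below 0.05, limma put 1425 of those 18479 lower and 2769 higher. Of 5 probe sets of mitochondrial ribosome proteins with other symbols, 0 were called at 7wk against 3wk by limma (1 lower at unadjusted p below 0.05); Dap3 had 0.14 (adjusted p = 0.743) and Ptcd3 -0.50 (adjusted p = 0.0701). Of 37 for assembly and rRNA modification, 2 were called lower (5.41%) and 0 higher. One was C1qbp (-0.59, limma adjusted p = 0.00927), a matrix protein that binds RNA and ribosomes. The other was Eral1 (-0.68, limma adjusted p = 0.0422), an assembly factor of the small subunit. The other probe set of C1qbp had -0.55 (adjusted p = 0.0512), and those of Eral1 had -0.57 to -0.08, none of them called. Of 11 for translation factors limma called 0 (1 lower and 0 higher at unadjusted p below 0.05), among them the elongation factors Gfm1 (-0.49, adjusted p = 0.0604) and Tufm (-0.88, adjusted p = 0.281). Of 15 for mitochondrial aminoacyl-tRNA synthetases it called 0 (3 lower at unadjusted p below 0.05), with a median of -0.24.

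Of 17 probe sets for mitochondrial DNA maintenance and transcription, 1 was called lower (5.88%), Mterf2 (-0.76, limma adjusted p = 0.0377), and the median was -0.03. Tfam, which packages mitochondrial DNA, had 0.21 (adjusted p = 0.573), and the 2 probe sets of the mitochondrial RNA polymerase Polrmt had -0.37 and -0.21 (adjusted p = 0.274 and 0.441). Of 39 for import translocases, 3 were called lower (7.69%, against 2.6% of all probe sets) and 0 higher. The 3 are in Timm10, Tomm70a and Timm8a1 (-0.66, -0.76 and -0.65), and the median of the list was -0.25. At 7wk against 3wk the medians of all these lists lay above the -0.27 of the mitochondrial ribosome. Those of import and of the aminoacyl-tRNA synthetases (-0.24) were close to it. At 6wk against 3wk the synthetases alone lay lower, at -0.31 against -0.27. At 5wk against 3wk the translation factors alone did, at -0.36 against -0.26.

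Cell type markers aside, the lists with the largest shares called lower at 7wk against 3wk lay outside translation. Of 144 probe sets for respiratory chain and ATP synthase subunits, 56 were called lower (38.9%) and 0 higher. Their median was -0.56, against -0.27 for the mitochondrial ribosome. Of 22 for regulators of mitochondrial genes, 9 were called lower (40.9%) and 0 higher, and 14 lay below 0. The median of the regulators was -0.24, no lower than that of the mitochondrial ribosome. Of their 9 called probe sets, 4 are of 1 gene, Ppargc1a. The share called lower was 12.1% for the mitochondrial ribosome and 2.6% for all probe sets. Ppargc1a, a coactivator that drives mitochondrial biogenesis, had 0.96, 0.583 and 0.581 at 7wk, against 2.63, 2.09 and 2.2 at 3wk on 1 of its 4 called probe sets, with no overlap (-1.74, SE 0.27, limma adjusted p = 0.00302). Ppargc1b had -1.18 (limma adjusted p = 0.00323), Nrip1 -1.12 (limma adjusted p = 0.00217) and Ppara, a receptor of fatty acid oxidation, -4.15 (limma adjusted p = 7.32e-05). Of the factors whose letters were searched, Esrra had -0.63 (limma adjusted p = 0.0331), and no probe set of Nrf1, Gabpa, Yy1 or Myc was called at 7wk.

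Cytosolic ribosomal proteins had few calls. Of 86 probe sets, 0 were called lower at 7wk and 1 higher (Rpl22, 0.97, limma adjusted p = 0.00302), with a median of -0.08. At 6wk 1 was called lower and 1 higher, with a median of 0.11, whereas the mitochondrial ribosome had -0.27. Against 4wk the 5wk median of the cytosolic list was 0.35, with 31 of 86 higher at unadjusted p below 0.05 and none called, and that of the mitochondrial ribosome -0.14. Of 26 cell cycle probe sets limma called 0 at 7wk (2 lower and 1 higher at unadjusted p below 0.05).

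**Figure D5:**
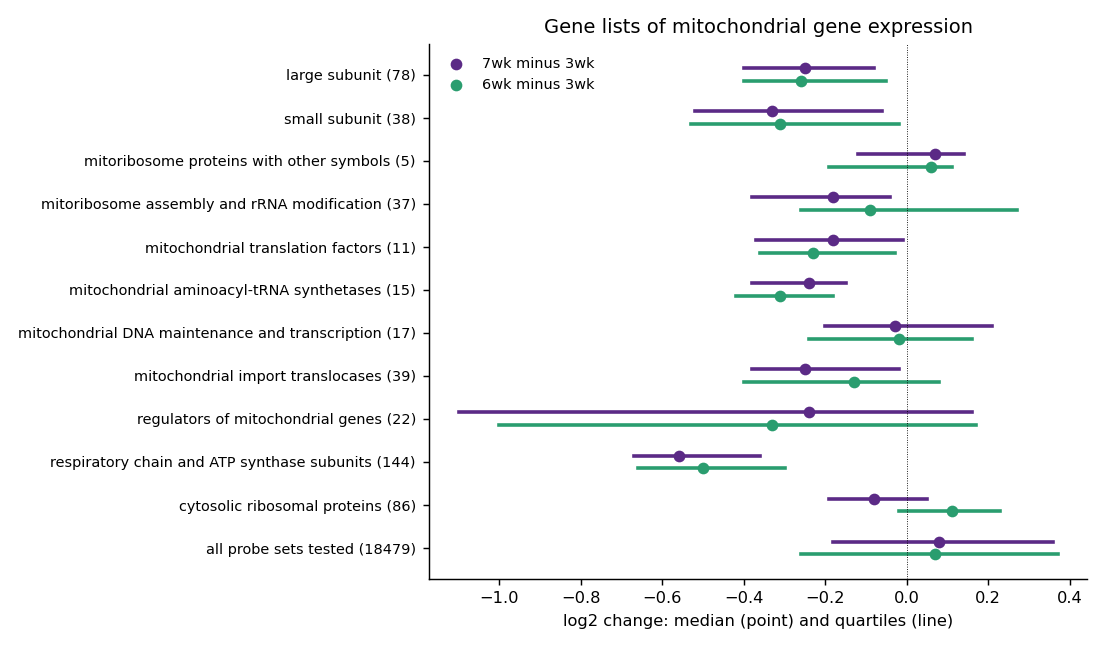
Median (point) and quartiles (line) of the log2 change at 7wk and 6wk against 3wk, in purple and green, for the subunits, for 9 gene lists and for all probe sets tested, with the number of probe sets in brackets. Respiratory chain subunits have the lowest median, -0.56 at 7wk, and cytosolic ribosomal proteins lie near 0.

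Markers of cell types and signs of array handling moved with age too, and their part in the changes above was not tested. Of 10 luminal epithelial probe sets, all 10 were called higher at 7wk than at 3wk, with array means of their log2 ratios from 0.494 to 0.748 at 7wk and from -2.34 to -1.58 at 3wk, and 6 of 13 basal ones were called higher. Of 9 brown adipocyte probe sets 5 were called lower and 0 higher, 6 lay below 0, and the highest change was 0.45. Array means of their log2 ratios ran from -0.703 to 0.027 at 7wk and from 0.713 to 1.42 at 3wk. Ucp1, the defining gene of these cells, had -3.01 (limma adjusted p = 0.00876). Of 10 adipocyte probe sets 3 were called lower, and of 4 skeletal muscle, 6 lymphocyte and 7 macrophage probe sets none was. Of 6 endothelial probe sets 1 was called higher. The 5' and 3' probe sets of a control are ratios to their own medians too, so their difference compares arrays and gives no absolute ratio. The 5' minus 3' log2 difference of the actin control was -0.792 to -0.085 at 6wk and -0.059 to 0.182 at 3wk. That of the pyruvate carboxylase control was -0.658 to 0.325 at 3wk, -2.78 to -1.81 at 6wk and 0.763 to 0.904 at 7wk, and that of Gapdh was -0.566 on 6wk A and between -0.097 and 0.164 on the other arrays. The hybridisation controls averaged -1.86 to -0.789 at 7wk and -0.233 to 0.557 at 3wk. With the hybridisation controls as a covariate, 4 members were called lower at 7wk, namely Mrpl47, Mrps2, Mrps35 and Mrps36, while the count over all probe sets was 352 in place of 1580. With the actin ratio as a covariate, 12 members were called at 7wk and 3 at 6wk, and the count over all probe sets at 6wk was 579 in place of 2536. Of the 12 members called at 6wk without it, Mrpl47 alone was among those 3 (limma adjusted p = 0.0397), and the others had adjusted p from 0.0616 to 0.436.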

How the data were processed

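The deposited table holds ratios that the authors made by dividing each probe set by its own median over 14 arrays, as tests on the values showed: 98.48% of 22690 medians equal 1 (within 0.001), and most others rest on a minimum divisor. The software and scaling behind them are not stated in the labels. Array medians over all 22690 probe sets ran from 0.953 to 1.017. Over the 18479 tested ones they differed between arrays by up to 0.134 on the log2 scale. Replicates are the arrays of an age, each of pooled mice per the labels, and the labels do not say whether pools share mice. Dividing by the median hides signal; where ratios were whole multiples of an array step, the level was recovered, and 4147 probe sets under 200 steps on all arrays or all but 1 were dropped, with 64 controls, leaving 18479. The files turned out to hold ratios, for which no offset was used. Genes were named by the array's annotation, which gives 1 symbol for 20393 probe sets, and all 127 members matched RefSeq by gene identifier.

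Log2 ratios were fitted with limma 3.58.1 in R 4.3.3, age as a factor, with an F test over ages and 7 comparisons, two-sided. Benjamini-Hochberg adjustment ran over all tested probe sets, threshold 0.05. Tables, motif searches and plots used matplotlib 3.10.9, pandas 2.3.3 and numpy 2.4.6 in Python 3.11.15. The model was tested on simulated data. No 2 arrays were identical. The number of arrays limits the precision. Alternatives changed the filter, offset, scaling, weights, covariates, arrays or unit.

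The members, gene lists and tests were chosen with earlier results of these data known. The lists are mitoribosome proteins with other symbols, assembly and rRNA modification, translation factors, aminoacyl-tRNA synthetases, DNA maintenance and transcription, import, regulators, respiratory chain, cytosolic ribosome and cell cycle, plus markers of luminal, basal, adipocyte, brown adipocyte, muscle, lymphocyte, macrophage and endothelial cells. Named members are, per subunit, the 10 largest called falls and 6 largest called rises at 7wk against 3wk, 4 of each in other comparisons, the 6 smallest F test p-values, the 4 smallest ranges of age means, every filtered member, every gene with probe sets of opposite sign, the Mrps18 paralogs, Mrpl12, Mrps12, Dap3, Tfam, Polrmt, Ppargc1a, Tufm, and up to 4 members of each list.

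Shared array letters (A, B, C) gave no sign of pairing arrays: deviations of 26 same-letter pairs correlated between -0.068 and 0.085, none over 0.1. Pairs with different letters were not set beside them, so weak pairing could have been missed.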

Additional observations from a re-analysis of the deposited data

How the results depend on the processing

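The subunit medians at 7wk and 6wk against 3wk, the comparisons for which they were recomputed, kept their sign under the alternatives run. Called members in the F test numbered 13 (1912 of all probe sets), and 4 (1012) with 6wk A and 6wk B left out, 3 (870) with the actin ratio as a covariate, 6 (1037) with the hybridisation controls as a covariate and 8 (1482) with no filter. At 7wk against 3wk there were 14 (1580), and 22 (1828) with array weights, 24 (1620) with arrays centred on their medians, 22 (1483) with quantile normalization and 4 (352) with the hybridisation control covariate. At 6wk there were 12 (2536), and 1 (746) with 6wk A and 6wk B left out and 3 (579) with the actin covariate, of which only Mrpl47 is among the 12. At 5wk there was 1 (671), and 3 genes (497 of all genes) with 1 value per gene, 0 (550) with 6wk A and 6wk B left out, 4 (739) with array weights, 5 (754) when centred, 3 (588) with the hybridisation control covariate, 2 (596) with the replicate block and 5 (880) with the stricter filter of 400 steps. The replicate block, which uses letters that gave no sign of pairing the arrays, gave 16 calls at 7wk, 13 at 6wk and 11 in the F test. The cause was not tested in any of these.

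At 7wk the large subunit median of -0.25 was -0.09 with the hybridisation control covariate and -0.34 after quantile normalization, and the small subunit median of -0.33 was -0.11 with that covariate. At 6wk the small subunit median of -0.31 was -0.50 with the actin covariate, and the large minus small mean change of 0.09 was 0.12 with no filter. Leaving out each array in turn gave 5 to 11 calls in the F test, 6 to 14 at 7wk, 7 to 14 at 6wk and 0 to 2 at 5wk against 3wk, and 0 to 0 in the other comparisons. Medians ranged from -0.30 to -0.18 (7wk) and -0.33 to -0.20 (6wk) for the large subunit, from -0.43 to -0.26 and -0.39 to -0.21 for the small, and the large minus small change from 0.02 to 0.05 and 0.07 to 0.11. All called members were lower, except Mrpl43 at 6wk without 3wk B. Signals near the lowest step limit what 11 filtered members can show.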
